A study of Mus musculus with 12 samples.

Results

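The interferon-inducible GTPases studied here are 10 mouse genes, the guanylate-binding proteins (GBPs) Gbp2, Gbp3, Gbp4 and Gbp7 and the immunity-related GTPases (IRGs) Irgm1, Irgm2, Igtp, Iigp1, Tgtp1 and Tgtp2. They were listed by symbol and matched to the Ensembl identifiers of the count files, and all 10 were found among 56748 genes. Gbp2 (ENSMUSG00000028270.13), Gbp3 and Gbp7 lie on chromosome 3, Gbp4 on chromosome 5, Iigp1 on chromosome 18, and Irgm1 (ENSMUSG00000046879.8), Irgm2, Igtp, Tgtp1 and Tgtp2 on chromosome 11. RNA was sequenced from an Eµ-Myc line, a B cell lymphoma of mice whose Myc transgene is driven by the immunoglobulin heavy chain enhancer, in 3 groups of 4 libraries. Hematogenous libraries came from lymphoma cells sorted from lymph nodes of C57BL/6J mice on day 18 after injection, following spread through the blood. Lymphatic libraries came from cells sorted from lymph nodes on day 11, following spread through lymphatic vessels. Culture libraries came from the cells in culture. All libraries carry the same Myc-driven line and no other allele or agent is named. Route and day change together and cannot be told apart. The sort gate is not given in the labels. Nor do the labels state that replicates came from different mice or flasks, so the p-values reflect spread among these libraries, which may be technical. Lymph node is also entered as tissue for the cultured cells, and the titles were followed.

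Assigned counts ran from 5286775 to 25302016 per library. Lymphatic 2 was the deepest library and also had the highest lymphatic level of all 10 members, and hematogenous 4 was the shallowest. Lymphatic 4 stood apart, with 16.0% of its counts in ribosomal protein genes against 7.60% to 9.86% in the other 11 libraries. All 10 B cell markers, Cd79a among them, had counts in every group, and they summed to 7939 ± 266 CPM in hematogenous, 6652 ± 520 CPM in lymphatic and 6127 ± 165 CPM in culture libraries (SD, n = 4 each). CPM are counts scaled to library size with TMM factors.

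Interferons switch these genes on through 2 kinds of promoter element. Interferon gamma, made mainly by T cells and NK cells, acts through its receptor, JAK kinases and STAT dimers on gamma-activated sequences (GAS). Type I interferons act through a complex of STAT proteins and IRF9 on interferon-stimulated response elements (ISREs), which IRF1 can also bind. The GTPases then coat vacuoles and membranes that hold intracellular pathogens. GBPs are large GTPases of which several, Gbp2 included, carry a lipid anchor. Among the IRGs, Irgm1, Irgm2 and Igtp (also called Irgm3) are regulators that sit on host membranes and keep the effector IRGs off them. Iigp1 (Irga6) and the near-identical Tgtp1 and Tgtp2 (Irgb6) are effectors that load onto pathogen vacuoles.

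The promoter stretch that holds the ISRE is shown for the 8 members with a RefSeq start site. The genes share this element, and what lies beside it is alike in some pairs and differs in others. Sequences are from RefSeq on build GRCm38.p6, 5′ to 3′ on the strand of the gene. They are descriptions of that build, since the counts were made on GRCm39. Capitals mark each match to the ISRE core on either strand, which is GAAA, any 2 bases and GAAA again, and overlapping matches are marked as 1 run.
Gbp2, chr3:142620579-142620638, plus strand: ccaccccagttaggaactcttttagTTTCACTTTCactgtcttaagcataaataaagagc
Gbp3, chr3:142559977-142560036, plus strand: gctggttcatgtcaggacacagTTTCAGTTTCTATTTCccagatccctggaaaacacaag
Gbp7, chr3:142530258-142530317, plus strand: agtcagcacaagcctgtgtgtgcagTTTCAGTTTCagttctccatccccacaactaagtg
Irgm1, chr11:48871421-48871472, minus strand: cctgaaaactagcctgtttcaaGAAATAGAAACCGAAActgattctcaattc
Irgm2, chr11:58214888-58214947, plus strand: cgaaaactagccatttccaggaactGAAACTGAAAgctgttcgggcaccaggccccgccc
Igtp, chr11:58199497-58199555, plus strand: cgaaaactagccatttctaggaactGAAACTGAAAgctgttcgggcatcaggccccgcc
Tgtp1, chr11:48992289-48992348, minus strand: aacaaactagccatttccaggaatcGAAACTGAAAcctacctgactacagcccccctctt
Tgtp2, chr11:49064248-49064307, minus strand: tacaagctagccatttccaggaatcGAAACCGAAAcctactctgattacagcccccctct

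The ISRE core was found within 250 bases before the start in 8 of the 9 RefSeq windows of members, against 2.98% of 32851 RefSeq promoter windows of the same length. The matches lay between −77 and −15 bases from the start. Gbp3 and Irgm1 each held 2 matches that overlapped. The ninth window, at a second start of Gbp3, had no match to either motif. Matches to GAS, written TTCNNNGAA, which reads the same on both strands, were found for 5 members, against 7.02% of windows. In Tgtp1, Tgtp2, Igtp and Irgm2 the GAS match lay just upstream of the ISRE, at −75 to −67 in Irgm2 and −45 to −37 in Igtp. The Irgm2 distances depend on its RefSeq start, as the end of that window was not found in a GENCODE transcript of the gene. Gbp7 held 2 GAS matches, at −106 to −98 and −87 to −79, and the windows of Gbp2, Gbp3 and Irgm1 held none. Aligned on the ISRE and compared without gaps, the stretches of Irgm2 and Igtp were identical at 57 of 59 bases. Those of Tgtp2 and Tgtp1 were identical at 44 of 60 bases. The latter pair goes out of step a few bases after the ISRE, so its count includes mismatches from that shift and understates the likeness. A match is a description of letters, and binding was not measured.

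**Figure D1:**
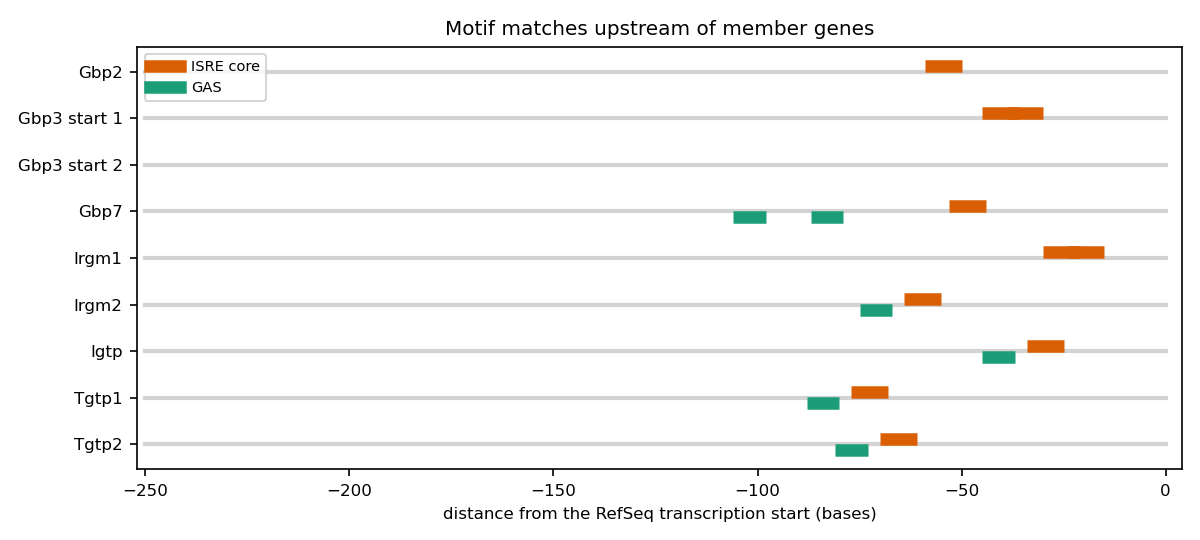
Matches to the ISRE core and GAS in the 250 bases before each RefSeq start of 8 members; the x axis is the distance from the start in bases and each grey line is 1 window. ISRE matches sit within 77 bases of the start in 8 windows, and GAS matches appear in 5.

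In every lymphatic library the 10 GTPase genes together held more transcripts than in any hematogenous library, and both lymph node groups exceeded culture. Their summed level was 83.4 ± 12.4 CPM in hematogenous libraries, with a range of 71.8 to 97.4 CPM. It was 222 ± 111 CPM in lymphatic libraries, with a range of 118 to 376 CPM, and 44.0 ± 2.43 CPM in culture libraries, with a range of 41.7 to 47.4 CPM. The ranges of the 3 groups did not overlap. In bulk RNA fewer cells that carry a transcript and less transcript per cell cannot be told apart.

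**Figure D2:**
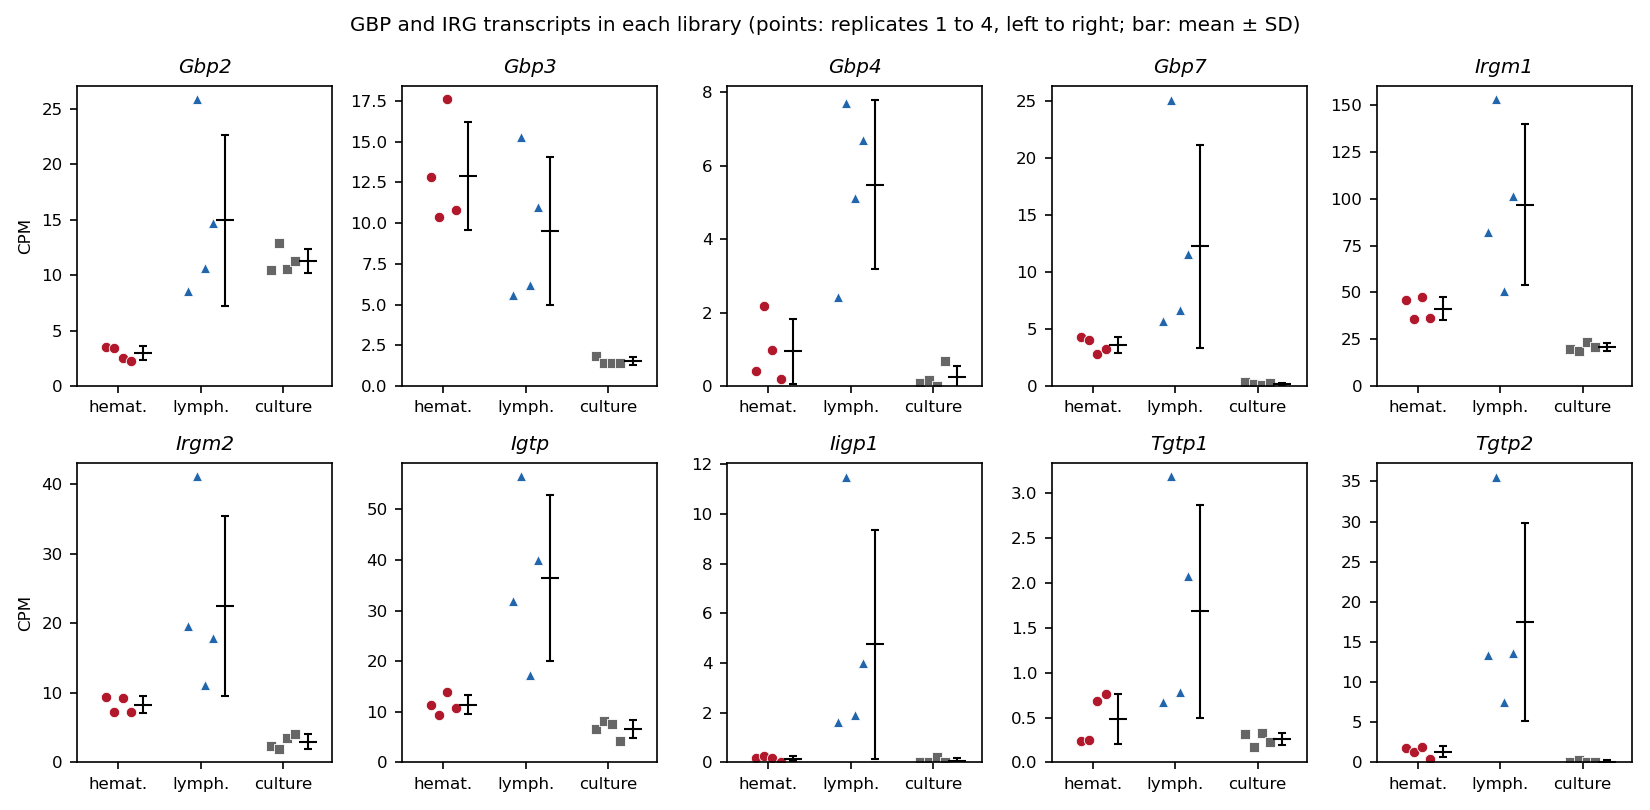
CPM of each of the 10 genes in the 12 libraries; each panel has a linear y axis from 0, points are replicates 1 to 4 from left to right, and the bar is mean ± SD (n = 4). The lymphatic points are the highest in most panels, Gbp2 is lowest in hematogenous libraries, and Gbp3 overlaps between the lymph node groups.

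Gbp2, which is recruited to vacuoles of Toxoplasma in mouse cells, was the single member whose hematogenous libraries all lay below the culture libraries. It had 3.53, 3.45, 2.54 and 2.28 CPM in hematogenous libraries 1 to 4, 8.59, 25.9, 10.6 and 14.7 CPM in lymphatic libraries, and 10.4, 12.9, 10.5 and 11.3 CPM in culture libraries. All hematogenous libraries lay below all others, while lymphatic and culture libraries overlapped. Gbp2 fell in hematogenous libraries against culture, by 3.72-fold (log2 change −1.90 ± 0.32 SE, edgeR adjusted p = 4.52e-04), and against lymphatic libraries, by 4.98-fold (log2 change −2.32 ± 0.31, edgeR adjusted p = 2.36e-04). Lymphatic against culture gave a log2 change of 0.42 ± 0.28 (95% interval −0.14 to 0.98, edgeR adjusted p = 0.303), which does not show that the groups are alike. Without lymphatic 2 that value was 0.02.

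Gbp3, its neighbour in the chromosome 3 GBP cluster, had another order. It had 12.8, 10.4, 17.6 and 10.8 CPM in hematogenous libraries 1 to 4, 5.61, 15.3, 6.23 and 11.0 CPM in lymphatic libraries, and 1.87, 1.39, 1.40 and 1.38 CPM in culture libraries. Both lymph node groups lay above culture in every library and overlapped each other. Gbp3 rose 8.39-fold in hematogenous libraries (log2 change 3.07 ± 0.35, edgeR adjusted p = 1.52e-05) and 6.24-fold in lymphatic libraries (2.64 ± 0.35, edgeR adjusted p = 7.94e-05), both against culture. Hematogenous against lymphatic gave a log2 change of 0.43 ± 0.29 (95% interval −0.14 to 1.00, edgeR adjusted p = 0.306). It was the single tested member for which hematogenous libraries averaged more than lymphatic libraries.

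Gbp7 was close to absent from culture. It had 4.25, 4.04, 2.84 and 3.23 CPM in hematogenous libraries 1 to 4, 5.68, 25.0, 6.62 and 11.6 CPM in lymphatic libraries, and 0.311, 0.174, 0.107 and 0.230 CPM in culture libraries, where 8 counts were seen in all. The 3 groups did not overlap. Gbp7 rose 16.0-fold in hematogenous libraries (log2 change 4.00 ± 0.64, edgeR adjusted p = 2.85e-04) and 54.4-fold in lymphatic libraries (5.77 ± 0.59, edgeR adjusted p = 9.29e-06) against culture. It fell 3.40-fold in hematogenous against lymphatic libraries (−1.77 ± 0.40, edgeR adjusted p = 0.00703). Without lymphatic 2 the lymphatic change against culture was 5.13 and the difference between the routes −1.14, both still called.

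Gbp4 lies in the GBP cluster on chromosome 5. It had 0.401, 2.19, 0.978 and 0.190 CPM in hematogenous libraries 1 to 4, 2.44, 7.70, 5.13 and 6.69 CPM in lymphatic libraries, and 0.0778, 0.174, 0 and 0.691 CPM in culture libraries. Hematogenous and culture libraries overlapped, and every lymphatic library lay above both. Gbp4 rose 23.8-fold in lymphatic libraries against culture (log2 change 4.57 ± 0.75, edgeR adjusted p = 5.12e-04) and fell 5.41-fold in hematogenous against lymphatic libraries (−2.44 ± 0.59, edgeR adjusted p = 0.00954). Hematogenous against culture gave 2.14 ± 0.87 (edgeR adjusted p = 0.0876). That value rests on single libraries. Hematogenous 2 held 26 of the 42 hematogenous counts and culture 4 held 6 of the 8 culture counts. When single libraries were left out the value ran from 1.30 to 3.63. The highest was without culture 4, where it was called (adjusted p = 0.0266, in a range of 0.00141 to 0.351 over all alternatives). Without culture 4 the lymphatic change was 6.08, and without hematogenous 2 the difference between the routes was −3.27.

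The 3 regulators followed one order, lymphatic above hematogenous above culture, with no overlap of libraries for any of them. Irgm1, which in mice is needed for resistance to several intracellular bacteria, was the most abundant member by counts. It had 46.1, 35.7, 47.6 and 36.1 CPM in hematogenous libraries 1 to 4, 82.1, 154, 50.6 and 101 CPM in lymphatic libraries, and 19.8, 18.8, 23.5 and 20.9 CPM in culture libraries. Irgm1 rose 1.99-fold in hematogenous libraries (log2 change 1.00 ± 0.26, edgeR adjusted p = 0.0101) and 4.67-fold in lymphatic libraries (2.22 ± 0.26, edgeR adjusted p = 3.42e-05) against culture. It fell 2.34-fold in hematogenous against lymphatic libraries (−1.23 ± 0.25, edgeR adjusted p = 0.00374).

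Irgm2 had 9.47, 7.24, 9.29 and 7.22 CPM in hematogenous libraries 1 to 4, 19.7, 41.2, 11.1 and 17.9 CPM in lymphatic libraries, and 2.33, 1.91, 3.55 and 4.15 CPM in culture libraries. The least lymphatic value, in lymphatic 3, was still above the highest hematogenous value. Irgm2 rose 2.77-fold in hematogenous libraries (log2 change 1.47 ± 0.38, edgeR adjusted p = 0.00912) and 7.48-fold in lymphatic libraries (2.90 ± 0.37, edgeR adjusted p = 6.66e-05) against culture, and fell 2.70-fold in hematogenous against lymphatic libraries (−1.43 ± 0.34, edgeR adjusted p = 0.00808).

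Igtp had 11.4, 9.43, 13.9 and 10.8 CPM in hematogenous libraries 1 to 4, 31.9, 56.6, 17.3 and 39.9 CPM in lymphatic libraries, and 6.53, 8.16, 7.63 and 4.26 CPM in culture libraries. Its hematogenous libraries all exceeded culture, by less than those of Irgm2. Igtp rose 5.53-fold in lymphatic libraries against culture (log2 change 2.47 ± 0.31, edgeR adjusted p = 6.14e-05) and fell 3.21-fold in hematogenous against lymphatic libraries (−1.68 ± 0.30, edgeR adjusted p = 0.00150). Hematogenous against culture gave 0.79 ± 0.32 and did not pass (edgeR adjusted p = 0.0821). It passed without lymphatic 2 (adjusted p = 0.0402) and without lymphatic 3 (adjusted p = 0.0238), in a range of 0.00197 to 0.221 over all alternatives.

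The effectors were near the counting limit outside the lymphatic libraries. Iigp1 had 0.161, 0.253, 0.196 and 0 CPM in hematogenous libraries 1 to 4, 1.62, 11.5, 1.89 and 3.99 CPM in lymphatic libraries, and 0, 0, 0.215 and 0 CPM in culture libraries. Every lymphatic library lay above all others, while hematogenous and culture libraries overlapped. With 7 counts in hematogenous, 407 in lymphatic and 2 in culture libraries, the ratio to culture was 3.22 for hematogenous (95% counting interval 0.612 to 31.7) and 106 for lymphatic libraries (29.1 to 877). Iigp1 rose in lymphatic libraries against culture (edgeR adjusted p = 3.54e-04) and fell 26.4-fold in hematogenous against lymphatic libraries (log2 change −4.72 ± 0.80, edgeR adjusted p = 0.00114). Hematogenous against culture gave 1.50 ± 1.56 (edgeR adjusted p = 0.536). Without lymphatic 2 the fitted log2 change between the routes was −3.78 and that of lymphatic against culture 5.26, against 6.22 with it. Without culture 3, which held both culture counts, it was 8.92.

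Tgtp2 had 1.85, 1.35, 1.86 and 0.380 CPM in hematogenous libraries 1 to 4, 13.3, 35.6, 7.57 and 13.6 CPM in lymphatic libraries, and 0, 0.347, 0.107 and 0 CPM in culture libraries. The 3 groups did not overlap. Hematogenous 4 and culture 2 each held 2 counts, though, and were apart by library size alone. With 60, 1427 and 3 counts, the ratio to culture was 18.4 for hematogenous (95% counting interval 5.99 to 91.6) and 248 for lymphatic libraries (84.5 to 1202). Tgtp2 rose in hematogenous libraries (edgeR adjusted p = 0.00719, in a range of 1.26e-10 to 0.0653 over all alternatives) and in lymphatic libraries (edgeR adjusted p = 9.41e-06) against culture. It fell 12.1-fold in hematogenous against lymphatic libraries (log2 change −3.59 ± 0.51, edgeR adjusted p = 3.44e-04). Without lymphatic 2 the last value was −2.98 and the lymphatic change against culture 6.93, against 7.56 with it. Without culture 2 the fitted changes against culture were 5.11 for hematogenous, against 3.97 with it, and 8.70 for lymphatic libraries.

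Tgtp1 had 0.241, 0.253, 0.685 and 0.760 CPM in hematogenous libraries 1 to 4, 0.676, 3.19, 0.789 and 2.08 CPM in lymphatic libraries, and 0.311, 0.174, 0.322 and 0.230 CPM in culture libraries. It was the member that did not pass the filter on low counts. Every lymphatic library lay above culture, and hematogenous libraries overlapped both groups. With no filter its log2 changes were 0.72 for hematogenous (edgeR adjusted p = 0.519) and 2.65 for lymphatic libraries (edgeR adjusted p = 6.11e-05) against culture, and −1.94 between hematogenous and lymphatic libraries (edgeR adjusted p = 0.00321).

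The split between Tgtp1 and Tgtp2 is uncertain. Their longest transcripts were 99.3% identical, and 83.3% of the 100-base windows of Tgtp1 and 80.4% of those of Tgtp2 occur in another gene. Counting of unique reads can then lose reads of either. Summed as 1 gene they had 2.09, 1.60, 2.54 and 1.14 CPM in hematogenous libraries 1 to 4, 14.0, 38.8, 8.36 and 15.7 CPM in lymphatic libraries, and 0.311, 0.521, 0.430 and 0.230 CPM in culture libraries. The sum did not overlap between groups. It rose in both lymph node groups against culture, with log2 changes of 2.37 for hematogenous (edgeR adjusted p = 0.0108) and 5.72 for lymphatic libraries (edgeR adjusted p = 4.85e-06), and fell by 3.34 on the log2 scale in hematogenous against lymphatic libraries (edgeR adjusted p = 1.68e-04). Gbp7 shared 10.2% of its windows, mostly with the gene Gm43802, Igtp shared 5.67%, and the other members at most 2.88%.

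Read against all 13535 tested genes, the members moved mainly upward against culture and downward between the routes. In hematogenous against culture libraries 5 of 9 tested members rose and 1 fell, where 27.8% of all tested genes were called, 13.9% in each direction. The members' median log2 change was 1.50, and that of all tested genes was 0.00. The middle value was that of Iigp1, which rests on 7 hematogenous and 2 culture counts and was not called. Libraries did not overlap for 6 of 9 tested members above and 1 below culture, where 43.6% of tested genes did not overlap, 21.8% in each direction. The 3 tested members that were not called were Gbp4, Igtp and Iigp1. In lymphatic against culture libraries 8 of 9 rose and 0 fell, by edgeR, where 26.4% of tested genes were called and 13.4% were higher. The median was 2.90, beside 0.04 for all tested genes. Of the 9 tested members 8 had no overlap, where 30.1% of tested genes had none. Tgtp1, which did not pass the filter, had none either. The member outside both of these lymphatic counts was Gbp2. Iigp1, Tgtp2, Gbp4 and Gbp7, with 2, 3, 8 and 8 culture counts, passed the filter through the lymph node libraries. These members could not have fallen against culture. Both comparisons use the same culture libraries.

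Between hematogenous and lymphatic libraries 8 of 9 tested members fell and 0 rose, where 22.3% of tested genes were called and 11.4% were lower. The median was −1.77, beside −0.03 for all tested genes. Hematogenous libraries lay wholly below lymphatic libraries for 8 of 9 tested members, where 24.6% of tested genes did not overlap and 11.5% did so in that direction. Gbp3 overlapped, as did Tgtp1, which did not pass the filter. Members that passed the filter through lymphatic counts, such as Iigp1 and Gbp4, could hardly have shown the opposite order.

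**Figure D3:**
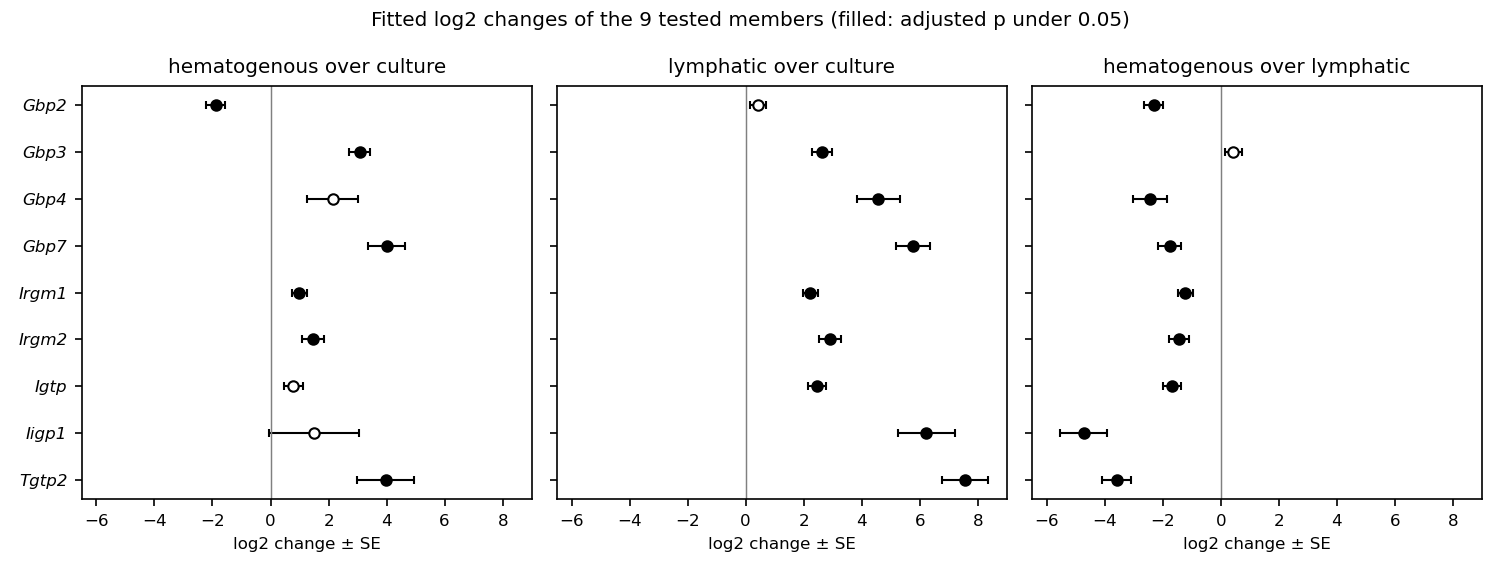
Fitted log2 change ± SE (x axis) of the 9 tested members in hematogenous over culture, lymphatic over culture and hematogenous over lymphatic libraries; filled points have an edgeR adjusted p under 0.05. Gbp2 is left of 0 in the hematogenous panel at −1.90, and Gbp3 is the single point right of 0 in the panel of the routes, at 0.43.

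The makeup of the family by share of the members' sum differed in its GBPs more than in its regulators. Irgm1 held 49.5 ± 1.36% of the members' summed CPM in hematogenous, 44.3 ± 3.03% in lymphatic and 47.1 ± 3.05% in culture libraries (SD, n = 4 each). Igtp held 13.7 ± 1.20%, 16.6 ± 1.96% and 15.1 ± 3.68% in the same order of groups. The ranges of Igtp overlapped between all groups. Those of Irgm1 overlapped except between hematogenous (48.1% to 51.1%) and lymphatic libraries (40.9% to 47.9%).

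Gbp2 held 3.59 ± 0.887% of the sum in hematogenous libraries, 6.88 ± 1.65% in lymphatic and 25.7 ± 2.91% in culture libraries, and its shares did not overlap between the groups. Gbp3 held 15.3 ± 1.89% in hematogenous, 4.39 ± 0.904% in lymphatic and 3.45 ± 0.695% in culture libraries, so it was the leading GBP of hematogenous libraries. Tgtp2 held 1.57 ± 0.703% in hematogenous, 7.44 ± 1.53% in lymphatic and 0.254 ± 0.373% in culture libraries. Shares of 1 sum depend on each other, and they were not tested.

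Per kb of exon, the order of the levels also turned on Gbp2. The order depends on the length used. The union of exons has 5810 bases for Irgm1, whose longest coding transcript has 2259. For Gbp2 and Igtp both lengths are the same, at 2516 and 2022 bases. By its transcript Irgm1 would stand higher against both, so its place and overlaps given here hold for the union alone. In hematogenous libraries the order was Irgm1 at 7.12 ± 1.09, Igtp at 5.63 ± 0.922, Gbp3 at 3.95 ± 1.02, Irgm2 at 2.25 ± 0.338 and Gbp2 at 1.17 ± 0.252 CPM per kb. Irgm1 overlapped Igtp and Igtp overlapped Gbp3, while Gbp3, Irgm2 and Gbp2 each stood apart from the next below. Gbp7 at 0.640 ± 0.119, Tgtp2 at 0.462 ± 0.236, Tgtp1 at 0.151 ± 0.0862, Gbp4 at 0.125 ± 0.120 and Iigp1 at 0.0261 ± 0.0186 CPM per kb followed, each overlapping the next.

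In lymphatic libraries every neighbour in the order overlapped. Igtp was at 18.0 ± 8.10, Irgm1 at 16.7 ± 7.43, Irgm2 at 6.09 ± 3.52, Tgtp2 at 5.96 ± 4.20 and Gbp2 at 5.95 ± 3.07 CPM per kb, followed by Gbp3 at 2.92 ± 1.39, Gbp7 at 2.18 ± 1.59, Iigp1 at 0.815 ± 0.792, Gbp4 at 0.732 ± 0.306 and Tgtp1 at 0.525 ± 0.371 CPM per kb. In culture Gbp2 came first by the union of exons, at 4.48 ± 0.446 CPM per kb. It stood apart from Irgm1 at 3.57 ± 0.353, which overlapped Igtp at 3.29 ± 0.855. The place of Gbp2 above Irgm1 rests on that length, since by its longest coding transcript Irgm1 would come first. Irgm2 at 0.809 ± 0.282 and Gbp3 at 0.462 ± 0.0730 CPM per kb came next. The other 5 members were each under 0.1 CPM per kb on average and overlapped.

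Lymphatic 2 was the highest lymphatic library for all 10 members. It exceeded the mean of the other 3 by 1.62-fold for Gbp4 at the least and by 4.59-fold for Iigp1 at the most. Lymphatic 1 was the lowest for 6 members and lymphatic 3 for the other 4. In hematogenous libraries the highest value was in hematogenous 1 for 3 members, hematogenous 2 for 2, hematogenous 3 for 4 and hematogenous 4 for 1. Hematogenous 4, the shallowest library, was the lowest for 5 members. Without lymphatic 2 the same number of members was called in each comparison with lymphatic libraries, 8 against culture and 8 between the routes, and the same held without lymphatic 4.

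Other cell types' markers also differed between the groups. The 14 T cell markers summed to 13.7 ± 6.26 CPM in hematogenous libraries (9.07 to 22.6), 59.3 ± 42.5 CPM in lymphatic libraries (26.0 to 121) and 2.33 ± 1.29 CPM in culture libraries (1.18 to 4.15), where 7 of 14 were at 0, Cd3d, Cd4, Cd8a and Trbc2 among them. The 13 macrophage and monocyte markers summed to 25.0 ± 3.50 CPM in hematogenous (20.1 to 28.3), 57.0 ± 25.9 CPM in lymphatic (32.2 to 90.7) and 16.9 ± 2.21 CPM in culture libraries (14.8 to 19.9), where 7 of 13 were at 0, Lyz2 among them. Without Lyz2 the other 12 summed to 13.3 ± 0.792 CPM in hematogenous, 29.3 ± 13.2 CPM in lymphatic and 16.9 ± 2.21 CPM in culture libraries. Csf1r averaged 1.49 CPM in hematogenous, 3.76 CPM in lymphatic and 8.54 CPM in culture libraries, and Csf1r and Itgam fell against culture in both lymph node groups. The T cell sum was ordered like the members' sum by group, while that of macrophages and monocytes was ordered so with Lyz2 and not without it.

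By library the order was not the same. T cell markers were highest in lymphatic 4 at 121 CPM and stood at 40.3 CPM in lymphatic 2, while the members' sum was 223 CPM in lymphatic 4 and 376 CPM in lymphatic 2. Macrophage and monocyte markers were at 90.7 CPM in lymphatic 4 and 63.1 CPM in lymphatic 2. The part of such cells in the members' levels was not tested.

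Of the 10 dendritic cell markers, Bst2 is itself an interferon-stimulated gene. Without it the other 9 summed to 10.3 ± 2.02 CPM in hematogenous (8.81 to 13.3), 11.6 ± 4.57 CPM in lymphatic (7.64 to 18.1) and 15.1 ± 2.64 CPM in culture libraries (11.8 to 18.3), with 3 of 9 at 0 in culture. The 10 NK cell markers summed to 1.51 ± 1.00, 5.74 ± 4.44 and 20.4 ± 2.01 CPM in hematogenous, lymphatic and culture libraries. In culture nearly all of it was Klrb1c. Without Klrb1c the other 9 summed to 1.28 ± 0.836 CPM in hematogenous (0.380 to 2.19), 5.00 ± 4.26 CPM in lymphatic (1.62 to 11.2) and 0.184 ± 0.143 CPM in culture libraries (0 to 0.346), the order of the members' sum, with 5 of 9 at 0 in culture, Ncr1 among them. The part of such cells was not tested either. The 8 neutrophil markers summed to 1.59 ± 0.713 CPM in hematogenous, 0.722 ± 0.190 CPM in lymphatic and 0.265 ± 0.298 CPM in culture libraries, with Ly6g at 0 throughout. The 6 erythroid markers summed to 4.25 ± 1.47 CPM in hematogenous, 7.66 ± 6.33 CPM in lymphatic and 17.3 ± 8.70 CPM in culture libraries, and the 12 of stroma and endothelium to 157 ± 12.5, 101 ± 16.1 and 78.3 ± 1.82 CPM. Of these 12, 8 were at 0 in hematogenous, 5 in lymphatic and 2 in culture libraries. The hematogenous sum thus came from 4 genes, with Pdgfra, Pdgfrb, Col1a1 and Col3a1 among those at 0.

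**Figure D4:**
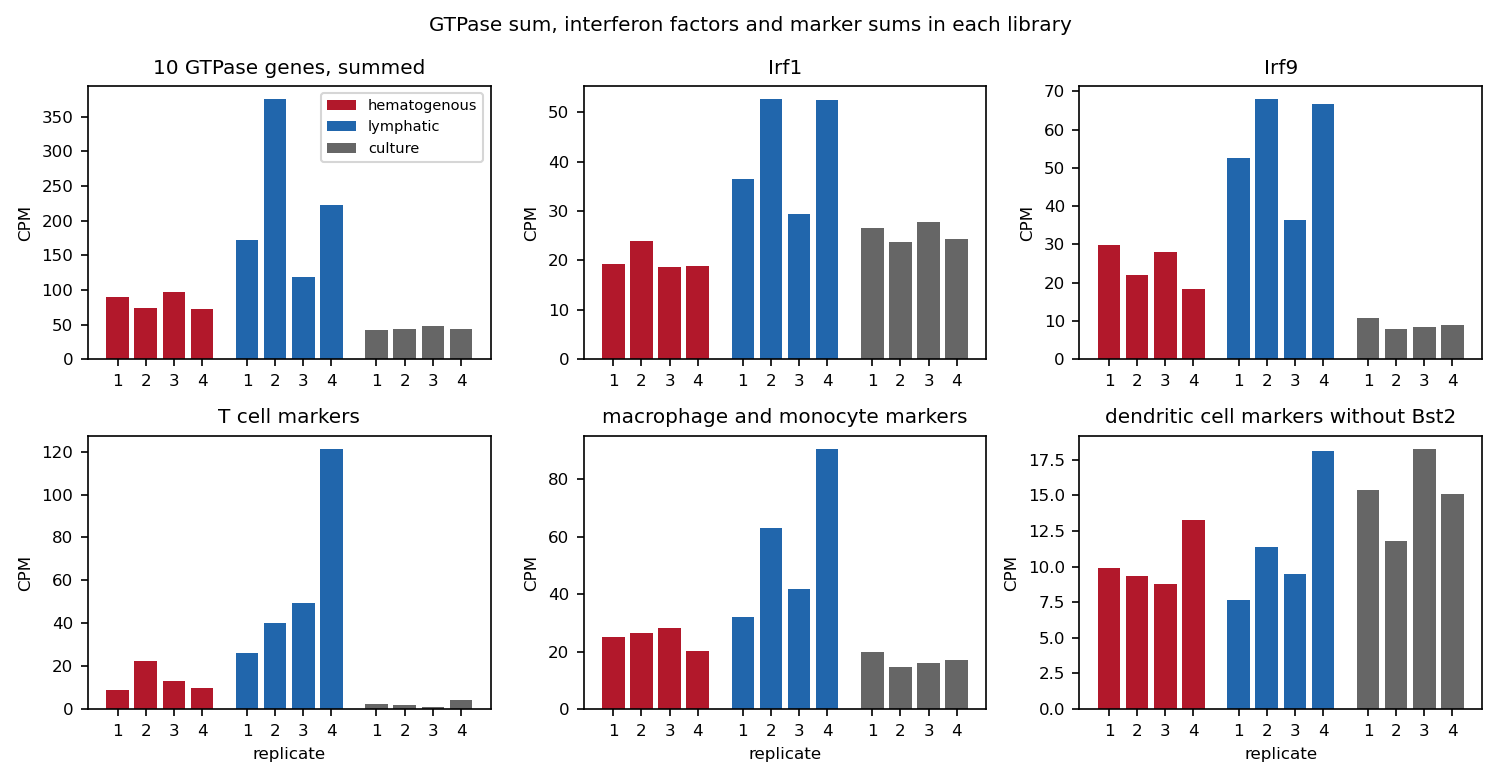
Bars give CPM (y axis, from 0) in each of the 12 libraries for the sum of the 10 GTPase genes, Irf1, Irf9 and 3 marker sums. Lymphatic 2 is highest for the GTPase sum at 376 CPM, while lymphatic 4 is highest for T cell markers at 121 CPM and macrophage markers at 90.7 CPM.

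The rest of the GBP and IRG family was listed separately. Of 26 names, 19 were matched and 9 passed the filter. Against culture, 4 of the 9 rose and 0 fell in hematogenous libraries (median log2 change 0.42), and 5 rose and 0 fell in lymphatic libraries (median 2.00), both by edgeR. Between hematogenous and lymphatic libraries 1 rose and 5 fell (median −1.18). Beside these medians those of all tested genes were 0.00, 0.04 and −0.03, and the shares of all tested genes called were 27.8%, 26.4% and 22.3%. Gbp5 and Gbp9, with 5 culture counts each, passed the filter through the lymph node libraries and could not have fallen against culture. Without hematogenous 1 the count that fell between the routes was 3. Gbp9 (edgeR adjusted p = 0.0609) and Gm5431 (edgeR adjusted p = 0.0924) then no longer passed.

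Gbp5, whose human and mouse proteins act in inflammasome responses, lies beside Gbp3 and Gbp7 and resembled Gbp3. It had 2.65, 3.03, 3.42 and 1.90 CPM in hematogenous libraries 1 to 4, 2.84, 5.22, 2.84 and 2.92 CPM in lymphatic libraries, and 0, 0, 0.215 and 0.346 CPM in culture libraries. Both lymph node groups lay above culture and overlapped each other. Gbp5 rose by 4.24 ± 0.58 on the log2 scale in hematogenous libraries (edgeR adjusted p = 7.78e-05) and by 4.56 ± 0.56 in lymphatic libraries (edgeR adjusted p = 4.60e-05) against culture. Hematogenous against lymphatic gave −0.32 ± 0.36 (95% interval −1.03 to 0.39, edgeR adjusted p = 0.559). Without culture 4 the changes against culture were 5.09 and 5.42.

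Gm12250 had 3.13, 3.45, 4.70 and 2.85 CPM in hematogenous libraries 1 to 4, 20.4, 41.5, 9.31 and 20.2 CPM in lymphatic libraries, and 0.933, 0, 0.107 and 0.346 CPM in culture libraries. The 3 groups did not overlap. It rose in both lymph node groups against culture, by 3.06 ± 0.64 on the log2 scale in hematogenous (edgeR adjusted p = 0.00227) and by 5.74 ± 0.59 in lymphatic libraries (edgeR adjusted p = 9.27e-06). It fell by 2.68 between hematogenous and lymphatic libraries (edgeR adjusted p = 9.53e-04). Without culture 1 the changes against culture were 4.33 and 7.01.

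Gbp9, in the chromosome 5 cluster with Gbp4, averaged 2.73 ± 1.35 CPM in hematogenous, 8.28 ± 5.21 CPM in lymphatic and 0.123 ± 0.0966 CPM in culture libraries (SD, n = 4 each). It rose in both lymph node groups against culture, with log2 changes of 4.27 for hematogenous (edgeR adjusted p = 3.61e-04) and 5.84 for lymphatic libraries (edgeR adjusted p = 1.75e-05), and fell by 1.57 between hematogenous and lymphatic libraries (edgeR adjusted p = 0.0158). Gm12185 averaged 0.559 ± 0.134, 3.66 ± 2.71 and 0.830 ± 0.0789 CPM in hematogenous, lymphatic and culture libraries. It rose in lymphatic libraries against culture (log2 change 2.17, edgeR adjusted p = 0.00318, and 1.51 without lymphatic 2). It fell in hematogenous against lymphatic libraries (−2.78, edgeR adjusted p = 0.00128, and −2.12 without lymphatic 2).

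Gvin1, a very large interferon-inducible GTPase, averaged 3.52 ± 1.10 CPM in hematogenous, 10.8 ± 7.52 CPM in lymphatic and 2.69 ± 0.409 CPM in culture libraries. It rose in lymphatic libraries against culture (log2 change 2.00, edgeR adjusted p = 0.00318) and fell in hematogenous against lymphatic libraries (−1.59, edgeR adjusted p = 0.0134). Gm5431 averaged 2.66 ± 0.594 CPM in hematogenous, 5.97 ± 3.52 CPM in lymphatic and 3.12 ± 0.990 CPM in culture libraries. Its fall between hematogenous and lymphatic libraries (−1.18, edgeR adjusted p = 0.0438) did not pass when any of 9 of the 12 libraries was left out, with −0.76 without lymphatic 2 (adjusted p = 0.131).

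Irgq, a distant relative of the IRGs, went the other way. It averaged 47.6 ± 4.88 CPM in hematogenous, 17.7 ± 6.19 CPM in lymphatic and 23.5 ± 1.67 CPM in culture libraries. All hematogenous libraries lay above all others. Irgq rose in hematogenous libraries by 1.02 ± 0.22 on the log2 scale against culture (edgeR adjusted p = 0.00294) and by 1.43 ± 0.22 against lymphatic libraries (edgeR adjusted p = 5.87e-04). The tandem genes 9930111J21Rik1 and 9930111J21Rik2 were not called in any comparison. In lymphatic 4 they stood at 1.24 and 7.81 CPM, against group means of 17.8 and 50.5 CPM in hematogenous, 14.2 and 40.3 CPM in lymphatic and 20.0 and 58.3 CPM in culture libraries.

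The remaining genes of the family with at least 10 counts did not pass the filter. Gbp6 held 3, 121 and 1 counts in hematogenous, lymphatic and culture libraries, Gbp8 15, 120 and 0, Gbp10 0, 23 and 0, and Gbp2b 0, 38 and 0. Irgc1 held 21, 3 and 5. Against a floor of 3 counts over the culture group, Gbp8 was at least 4.59-fold higher in hematogenous and at least 20.8-fold higher in lymphatic libraries, Gbp10 at least 3.99-fold and Gbp2b at least 6.59-fold higher in lymphatic libraries. Gbp6 had a ratio of 63.0 between lymphatic and culture libraries (95% counting interval 11.1 to 2507).

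**Figure D5:**
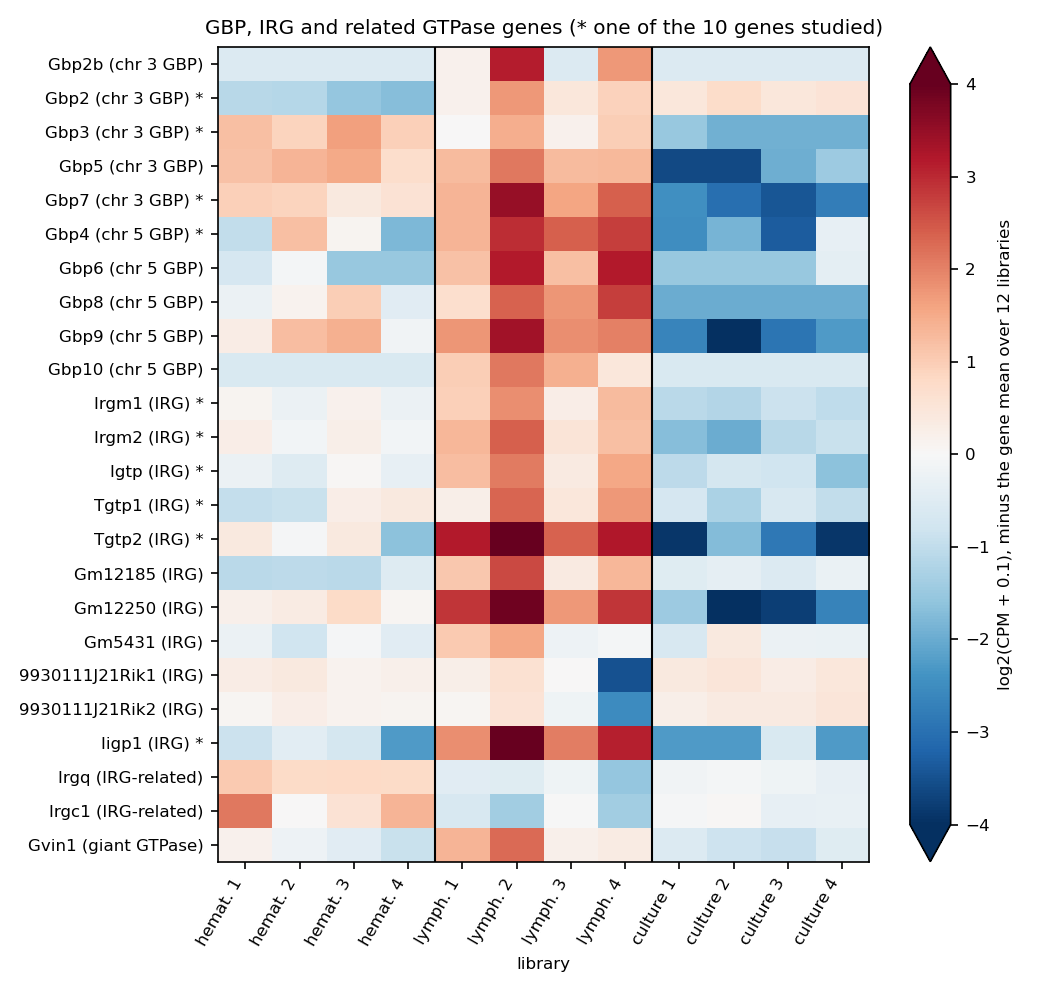
Heat map of the 10 genes and of related genes with at least 10 counts, by library; colour is log2(CPM + 0.1) minus the mean of the gene over 12 libraries, cut at −4 and 4. Lymphatic 2 is the darkest red column for most genes, the culture columns are mostly blue, with Gbp2 light red in all 4, and Irgq is red in the hematogenous columns.

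Interferon transcripts themselves were hardly seen. Of 14 interferon genes 0 passed the filter. Ifng held 7 counts in hematogenous, 5 in lymphatic and 1 in culture libraries. The receptors were present in every group. Ifngr1 averaged 33.5 ± 3.37, 34.7 ± 1.55 and 32.5 ± 3.42 CPM and Ifngr2 27.6 ± 4.42, 26.6 ± 6.44 and 30.0 ± 2.99 CPM in hematogenous, lymphatic and culture libraries, and neither was called in any comparison. Ifngr2 was called lower in lymphatic libraries against culture without lymphatic 4 (log2 change −0.37, adjusted p = 0.0335).

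Of 8 tested receptor and kinase genes, 2 rose and 1 fell in hematogenous against culture, 0 rose and 3 fell in lymphatic against culture, and 2 rose and 0 fell in hematogenous against lymphatic libraries. These counts were near the 27.8%, 26.4% and 22.3% of all tested genes called. Ifnar1, a chain of the type I receptor, averaged 51.4 ± 6.36 CPM in hematogenous, 34.5 ± 4.61 CPM in lymphatic and 34.4 ± 1.38 CPM in culture libraries, and rose in hematogenous libraries against culture (log2 change 0.58, edgeR adjusted p = 0.00344) and against lymphatic libraries (0.58, edgeR adjusted p = 0.00561). Jak1 averaged 205 ± 15.2, 147 ± 32.7 and 225 ± 6.57 CPM and fell in lymphatic libraries against culture (log2 change −0.61, edgeR adjusted p = 0.00675). Il10rb fell there too (−0.52, edgeR adjusted p = 0.00633), as did Jak2 (−0.80, edgeR adjusted p = 0.00303). The calls of Ifnar2 and Jak2 in hematogenous libraries against culture were each lost when any of 6 single libraries was left out (adjusted p of up to 0.135 and 0.0753), and that of Jak1 between the routes without hematogenous 2, 3 or 4 (up to 0.0775).

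Among the transcription factors, Irf9, the DNA-binding partner of STAT proteins, was ordered like the regulators. It averaged 24.5 ± 5.41 CPM in hematogenous, 55.9 ± 14.7 CPM in lymphatic and 8.93 ± 1.23 CPM in culture libraries, and was called in all 3 comparisons (log2 changes 1.45, 2.64 and −1.18).

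Irf7, which amplifies type I interferon, averaged 4.35 ± 2.21, 23.4 ± 13.8 and 0.755 ± 0.101 CPM in the same groups and was also called in all 3 (2.60, 4.96 and −2.37). Irf8, a factor of B cells and myeloid cells, went another way, with 157 ± 29.5 CPM in hematogenous, 58.1 ± 13.4 CPM in lymphatic and 106 ± 3.66 CPM in culture libraries. It fell in lymphatic libraries against culture (log2 change −0.86, edgeR adjusted p = 0.00172) and rose in hematogenous against lymphatic libraries (1.44, edgeR adjusted p = 9.34e-05). Its rise in hematogenous libraries against culture (0.58, edgeR adjusted p = 0.0175) did not pass without hematogenous 1 (adjusted p = 0.0703) or hematogenous 3 (adjusted p = 0.0579).

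Irf1, chosen after its values were seen because it drives many GBP genes, averaged 20.1 ± 2.53 CPM in hematogenous, 42.7 ± 11.7 CPM in lymphatic and 25.5 ± 1.91 CPM in culture libraries. It rose in lymphatic libraries against culture (log2 change 0.74, edgeR adjusted p = 0.00752) and fell in hematogenous against lymphatic libraries (−1.08, edgeR adjusted p = 9.90e-04). Hematogenous against culture gave −0.34 ± 0.18 (edgeR adjusted p = 0.193), and hematogenous 2 at 23.9 CPM overlapped culture 2 at 23.6 CPM. In all, 6 of the 15 tested factors and feedback genes rose and 1 fell in hematogenous against culture, 5 rose and 3 fell in lymphatic against culture, and 3 rose and 5 fell in hematogenous against lymphatic libraries, where 27.8%, 26.4% and 22.3% of all tested genes were called. The median log2 changes were 0.27, 0.35 and −0.36. The gene that fell in hematogenous against culture, Stat3, did not pass when any of 5 single libraries was left out (adjusted p of up to 0.0844).

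Most antiviral interferon-stimulated genes were higher in the lymph node groups than in culture, and highest in lymphatic libraries. Of 20 tested, 12 rose and 0 fell in hematogenous against culture (median log2 change 2.18), 20 rose in lymphatic against culture (median 5.52), and 0 rose and 19 fell in hematogenous against lymphatic libraries (median −2.87), all by edgeR. Of all tested genes 27.8%, 26.4% and 22.3% were called in these comparisons. Genes such as Mx1, Oas1a and Rtp4, with 2, 1 and 1 culture counts, passed the filter through the lymph node libraries and could not have fallen against culture. The count that fell between the routes was 16 to 20 when single libraries were left out. Oas2, a sensor of double-stranded RNA, averaged 8.40 ± 3.14 CPM in hematogenous, 76.0 ± 57.0 CPM in lymphatic and 0.222 ± 0.0858 CPM in culture libraries, and its difference between the routes was −3.14 (edgeR adjusted p = 2.86e-04, and −2.49 without lymphatic 2). Mx1, an antiviral GTPase of the dynamin family, averaged 5.99 ± 2.11 CPM in hematogenous, 33.6 ± 28.8 CPM in lymphatic and 0.0576 ± 0.115 CPM in culture libraries. Its difference between the routes was −2.50 (edgeR adjusted p = 0.00353, and −1.72 without lymphatic 2). With 2 culture counts its ratio to culture was 110 for hematogenous (95% counting interval 30.1 to 912) and 732 for lymphatic libraries (202 to 6048).

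Ifitm3, which blocks viral entry, averaged 6.39 ± 3.50 CPM in hematogenous, 49.1 ± 28.7 CPM in lymphatic and 0.104 ± 0.0958 CPM in culture libraries, and Rtp4 2.50 ± 1.47, 27.2 ± 16.1 and 0.0288 ± 0.0576 CPM. Both fell in hematogenous against lymphatic libraries (log2 changes −2.92 and −3.35, edgeR adjusted p = 4.94e-04 and 5.22e-04). Oas1a had a difference between the routes of −1.93 (edgeR adjusted p = 0.00563).

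Of 14 tested other genes that interferon gamma induces, 6 rose and 1 fell in hematogenous against culture, and 8 rose and 0 fell in lymphatic against culture, with 5 in place of 8 without culture 2 or culture 4. Between hematogenous and lymphatic libraries 2 rose and 1 fell, and 5 rose and 2 fell without lymphatic 4. The 3 called of 14 were near the 22.3% of all tested genes. For hematogenous and lymphatic libraries against culture the shares of all tested genes called were 27.8% and 26.4%. The second that rose, Wars, did not pass when any of 9 single libraries was left out (adjusted p of up to 0.136). Ciita, the master regulator of MHC class II genes, averaged 125 ± 16.0 CPM in hematogenous, 34.8 ± 12.0 CPM in lymphatic and 11.0 ± 1.39 CPM in culture libraries. It rose in hematogenous libraries both against culture (log2 change 3.51, edgeR adjusted p = 6.56e-08) and against lymphatic libraries (1.85, edgeR adjusted p = 6.00e-05), the opposite direction to 8 of the GTPases between the routes.

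Tap1, the peptide transporter of MHC class I loading, averaged 61.2 ± 5.79 CPM in hematogenous, 56.2 ± 7.57 CPM in lymphatic and 23.1 ± 1.26 CPM in culture libraries. It rose in both lymph node groups against culture (log2 changes 1.40 and 1.28, edgeR adjusted p = 1.35e-06 and 5.27e-06) and was not called between them (0.13, edgeR adjusted p = 0.473). The immunoproteasome subunits Psmb8 and Psmb9 also rose in both (1.20 and 0.93 for Psmb8, 1.41 and 1.32 for Psmb9). Between the routes they were called without lymphatic 4 alone (0.69 and 0.56, adjusted p = 1.92e-04 and 0.00413). Parp14 rose in both (1.16 and 1.74) and was called between the routes without lymphatic 4 (−0.78, adjusted p = 0.0146).

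Of 15 tested genes of the autophagy conjugation machinery, which directs IRG loading, 1 rose and 2 fell in hematogenous against culture, 4 rose and 1 fell in lymphatic against culture, and 1 rose and 0 fell in hematogenous against lymphatic libraries. The shares of all tested genes called were 27.8%, 26.4% and 22.3%, and nothing is read from these counts. Leaving out single libraries gave 1 to 4 and 1 to 4, 3 to 5 and 1 to 4, and 1 and 0 to 1. Atg10 rose in both lymph node groups against culture (log2 changes 0.97 and 1.03, edgeR adjusted p = 0.0108 and 0.00803). Trim21 (0.87, edgeR adjusted p = 0.00417) and Atg12 (0.46, edgeR adjusted p = 0.00935) rose and Atg7 (−0.48, edgeR adjusted p = 0.0136) fell in lymphatic against culture, and Atg16l1 fell in hematogenous against culture (−0.50, edgeR adjusted p = 0.00163).

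Of 8 tested inflammasome and lysis genes, which GBPs engage in macrophages, 5 rose and 1 fell in hematogenous against culture and 4 rose and 0 fell in lymphatic against culture. In these comparisons with culture 27.8% and 26.4% of all tested genes were called. Between hematogenous and lymphatic libraries 1 rose and 1 fell, near the 22.3% of all tested genes called. Nlrc4 averaged 29.1 ± 4.54 CPM in hematogenous, 14.8 ± 3.58 CPM in lymphatic and 10.7 ± 0.780 CPM in culture libraries, and rose in hematogenous libraries against culture (log2 change 1.43, edgeR adjusted p = 5.07e-05) and against lymphatic libraries (0.97, edgeR adjusted p = 0.00194). Casp1 rose in both groups against culture (0.67 and 0.82), and Gsdmd, the pore-forming gasdermin, rose in hematogenous libraries (0.74, edgeR adjusted p = 0.00102). The fall of Ninj1 in hematogenous against culture (−0.99, edgeR adjusted p = 0.0242) did not pass without hematogenous 1 or 2 or culture 1 or 2 (adjusted p of up to 0.0731).

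Of 9 genes that serve the lipid anchors of prenylated proteins, as several GBPs are, 2 rose and 1 fell in hematogenous against culture, 1 rose and 2 fell in lymphatic against culture, and 2 rose and 1 fell in hematogenous against lymphatic libraries, the last 2 being 0 to 3 and 1 to 2 when single libraries were left out. These counts were near the 27.8%, 26.4% and 22.3% of all tested genes called. Fdps, which makes the farnesyl precursor of these anchors and of sterols, averaged 29.4 ± 4.01 CPM in hematogenous, 53.1 ± 9.71 CPM in lymphatic and 192 ± 11.9 CPM in culture libraries. It fell in all 3 comparisons (log2 changes −2.71, −1.85 and −0.86, edgeR adjusted p = 2.01e-08, 6.12e-07 and 9.22e-04). Gdi2 rose in hematogenous against culture (0.46, edgeR adjusted p = 0.00282). In lymphatic against culture Fnta rose (0.50, edgeR adjusted p = 0.0119) and Icmt fell (−0.47, edgeR adjusted p = 0.0144).

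The 8 genes whose log2 CPM over the 12 libraries was most like the mean of the standardised tested members had Pearson r from 0.970 to 0.978. The libraries form 3 groups and share depth, so r is a description. In falling order these were Usp18, Ifi208, Ifi214, Gm6548, Slfn5, Snx6, Oasl2 and Phf11d. Usp18, a brake on type I interferon signalling, averaged 3.74 ± 1.82 CPM in hematogenous, 34.2 ± 21.4 CPM in lymphatic and 0.769 ± 0.402 CPM in culture libraries. It was also on the list of factors and feedback genes, where its rise in hematogenous libraries against culture (log2 change 2.40, edgeR adjusted p = 0.0130) did not pass without culture 1 (adjusted p = 0.0503). Ifi208 averaged 7.75 ± 2.53, 45.9 ± 30.4 and 1.82 ± 0.619 CPM in hematogenous, lymphatic and culture libraries.

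Within the family the same measure set Gbp2 and Gbp3 apart. Each tested member was compared with the mean of the other 8. Pearson r was 0.875 for Gbp4, 0.909 for Gbp7, 0.977 for Irgm1, 0.944 for Irgm2, 0.948 for Igtp, 0.938 for Iigp1 and 0.969 for Tgtp2. It was 0.628 for Gbp3 and 0.191 for Gbp2, and −0.41 between Gbp2 and Gbp3.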

How the data were processed

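Poly(A) RNA of 12 libraries was sequenced as stranded single-end reads, per the labels' protocols. FastQC 0.11.9, Trimmomatic 0.39, HISAT2 2.1.0 and HTSeq 2.0.2 and the build GRCm39 are named in the submitters' processing notes. The deposited values are raw counts for each gene, not normalized by the authors, per the file contents. Summary lines that name no gene (30.3% to 36.5% of a library's reads) entered neither library sizes nor tests. Symbols were found for 91.8% of identifiers, holding at least 98.8% of counts, and 10 of 10 members matched. Exon and transcript lengths and shared 100-base windows came from GENCODE M21 and promoters from RefSeq, both on GRCm38.

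The test was the quasi-likelihood F test of edgeR 4.0.16 (R 4.3.3, two-sided, TMM factors), fitted jointly to the 12 libraries with 9 residual degrees of freedom. It covered the 13535 genes that filterByExpr kept, and each comparison was adjusted by Benjamini-Hochberg across them with a threshold of 0.05. SE was taken from the log2 change and its F value and is approximate, and 95% intervals are normal intervals from that SE. Counting intervals are exact binomial at 95%, and they and the floor of 3 counts over a group cover counting error only, since no molecular identifiers were used here. CPM per kb uses the union of exons. Likeness is Pearson r of log2 CPM (prior count 2). The alternatives were DESeq2 1.42.0, limma-voom (limma 3.58.1), other scaling, no filter, fits of 2 groups, the replicate number as a block, leaving out libraries and Tgtp1 and Tgtp2 summed. The scripts were tested on simulated data.

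The members and the 17 lists, 9 of genes around the members and 8 of cell type markers, with 220 names of which 9 were not matched, were chosen with earlier results of these data known. All members are named. Of each pathway list at most 5 called genes are named, by largest log2 change, with a mean of at least 5 CPM in the higher group. Of the family list every gene with at least 10 counts is named, and 8 most alike genes. Genes named as exceptions were chosen after their values were seen. Some genes that this rule would name are not reported here.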

Additional observations from a re-analysis of the deposited data

Results flagged for a closer look

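In 7 of 108 groups of 4 libraries checked, for members, related genes and marker sums, 1 library lay far from the other 3, where chance gives about 1 in 20. The gap to the nearest library, as a share of the group's range, was 0.965 for Gbp5 in lymphatic libraries (lymphatic 2, 5.22 CPM), 0.905 for Gbp9 in lymphatic libraries (lymphatic 2, 16.1 CPM), 0.916 for Gm12185 in hematogenous libraries (hematogenous 4, 0.760 CPM) and 0.904 for Irgq in hematogenous libraries (hematogenous 1, 54.9 CPM). In culture it was 0.970 for Gbp3 (culture 1, 1.87 CPM), and 1.00 for both Iigp1 (culture 3, 0.215 CPM) and Gbp6 (culture 4, 0.115 CPM), whose other culture libraries held 0 counts.

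The change against culture differed between the routes for 8 members, by the edgeR test of hematogenous against lymphatic libraries, which is the test of that difference. The log2 difference, hematogenous minus lymphatic, was −2.32 for Gbp2, −2.44 for Gbp4, −1.77 for Gbp7, −1.23 for Irgm1, −1.43 for Irgm2, −1.68 for Igtp, −4.72 for Iigp1 and −3.59 for Tgtp2. For related genes it was −1.57 for Gbp9, −1.18 for Gm5431, −2.78 for Gm12185, −2.68 for Gm12250, −1.59 for Gvin1 and 1.43 for Irgq. Hematogenous libraries were lower in every pairing for the 8 members, and the edgeR adjusted p was at most 0.00954 for these.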

How the results depend on the processing

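The number of members called stayed within 1.5 times under all 21 alternatives, at 5 to 8 in hematogenous against culture, 8 to 9 in lymphatic against culture and 8 to 9 in hematogenous against lymphatic libraries, and 0 values turned direction. Calls of single members changed in hematogenous against culture alone. There Gbp4 and Igtp became called with DESeq2 (adjusted p = 0.0320 and 0.0474) and with no filter (0.00141 and 0.00243), Igtp with only the 2 groups fitted (0.00197), Gbp4 without lymphatic 4 and culture 4 together (0.0175), and Tgtp2 was no longer called with limma-voom (log2 change 3.62, adjusted p = 0.0653). Counts of all called genes moved more. They were 3760, 3569 and 3012 in the 3 comparisons. With only the 2 groups fitted, hematogenous against culture gave 6344 and hematogenous against lymphatic 1734. Leaving out 1 library gave 3125 (without culture 1) to 5930 (without lymphatic 4) in hematogenous against culture and 2002 (without hematogenous 1) to 4333 (without lymphatic 4) in hematogenous against lymphatic libraries. No pairing by replicate number was seen, as deviations of same-numbered libraries correlated at −0.181 to 0.0919 and 0 of 12 pairs were over 0.1. The labels do not state a pairing, and these correlations cannot exclude it. With the replicate number as a block the counts of all genes were 3341, 2960 and 2309, and those of members 6, 8 and 8. Depth limits Iigp1, Tgtp1, Tgtp2 and Gbp4 in culture.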
